A study of Mus musculus with 24 samples.

Results

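The genes described here are 32 mouse genes for integrin chains, selectins and the cell-surface molecules that integrins and selectins bind. They were taken by gene symbol from a table of read counts with 46477 gene rows, and all 32 symbols were found in it. Of the 32, 27 passed a filter on low counts and entered the tests. The other 5 (Itga2, Itga7, Itga11, Itgb6 and Itgb8) never exceeded 16 counts in any library.

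The study asked how removal of most of the liver changes the transcripts of granulocytic myeloid-derived suppressor cells (G-MDSCs), cells with the surface markers of neutrophils that restrain T cell responses. Wild-type male BALB/C mice aged 8 weeks had 70% of the liver removed (hepatectomy) or underwent a sham operation with an incision of the abdomen and no resection. On postoperative day (POD) 1, 2, 3 or 4, the liver was digested with collagenase, hepatocytes were spun out, and CD11b+Ly6G+ cells were collected on magnetic columns. Each of the 8 groups had 3 poly-A RNA-seq libraries, and no label says that these came from separate animals, so p-values measure the spread between libraries, which may be technical. Unoperated mice are not among the groups, so the sham operation is the reference throughout.

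Integrins are pairs of an alpha and a beta chain that hold cells to other cells and to matrix. Neutrophils slow on vessel walls when selectins catch carbohydrate-bearing ligands such as PSGL-1, and then stop and crawl when beta2 integrins bind ICAM-1 and related molecules. In the liver the sinusoids are narrow, and neutrophil arrest there is known to depend less on selectins than in other tissues. CD11b, the protein that the beads captured, is itself the alpha chain encoded by Itgam, so the level of Itgam is partly what the cells were selected on.

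Library totals ran from 10390216 to 16949088 counts. Neutrophil markers were present in every library, but their summed level varied widely, from 3642 CPM (counts scaled to a common library total with TMM factors) in 1 sham POD2 library to 269123 CPM in 1 hepatectomy POD1 library. Markers of sinusoidal endothelium, the cells that line liver capillaries, were present as well, although the sort was not aimed at them. A score of 15 such markers was the mean of log2(CPM + 1), with CPM here scaled by library total alone, without TMM factors. It left a gap between 9 libraries at or below 8.19 and 15 libraries at or above 10.31. The low 9 were all 3 hepatectomy POD1 libraries, sham POD1 replicates 1 and 2, sham POD4 replicates 2 and 3, and replicate 1 of hepatectomy POD3 and of hepatectomy POD4. In bulk samples such as these, fewer cells of a type and less RNA per cell cannot be told apart.

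On POD1, 16 of the 27 tested adhesion genes differed between hepatectomy and sham at an adjusted p under 0.05 in edgeR's quasi-likelihood test, where 40.9% of all 14325 genes tested did. Of these, 5 rose (Icam1, Sele, Selp, Itgb3 and Itga5) against 13% of all genes, and 11 fell against 28% of all genes. The median log2 fold change of the 27 was -0.59, beside -0.42 for all genes. On POD2, POD3 and POD4 none of the 27 passed in the fit of all 24 libraries, although other fits called 6 or 7 on POD2 and 5 on POD3, as given with those days. The TMM factors were 0.462 to 0.511 in the 3 hepatectomy POD1 libraries and 0.666 to 1.43 elsewhere. With library size alone the median of all genes at POD1 was -1.43 on the log2 scale, 3 of the 27 were called as higher and 15 as lower, and the split over all genes was 610 higher and 8066 lower in place of 1857 and 4009.

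The promoters of the genes that rose are shown first, since 4 of the 5 have an entry in the RefSeq promoter table and were searched for short motifs. Each line is the 250 bases before the RefSeq start on GRCm38.p6, read 5′ to 3′ in the direction of the gene. Capitals mark each match of GGNNNTTCC on either strand, a loose form of the NF-kB site.
Sele, chr1:164047984-164048233, plus strand: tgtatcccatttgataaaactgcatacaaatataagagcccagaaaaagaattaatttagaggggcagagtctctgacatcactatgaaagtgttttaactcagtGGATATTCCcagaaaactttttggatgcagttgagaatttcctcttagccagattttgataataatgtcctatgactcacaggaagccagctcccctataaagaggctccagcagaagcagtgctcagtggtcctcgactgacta
Selp, chr1:164115014-164115263, plus strand: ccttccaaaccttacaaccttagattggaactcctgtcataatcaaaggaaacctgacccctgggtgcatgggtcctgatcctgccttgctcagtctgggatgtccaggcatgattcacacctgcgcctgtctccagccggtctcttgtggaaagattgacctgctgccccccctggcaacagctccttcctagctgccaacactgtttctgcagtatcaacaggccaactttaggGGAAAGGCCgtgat
Icam1, chr9:21015690-21015939, plus strand: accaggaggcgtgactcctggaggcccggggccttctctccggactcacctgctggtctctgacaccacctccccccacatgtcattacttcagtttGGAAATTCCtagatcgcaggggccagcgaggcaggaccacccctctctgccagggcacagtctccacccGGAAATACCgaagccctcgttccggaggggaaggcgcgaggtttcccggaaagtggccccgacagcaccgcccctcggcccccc
Itga5, chr15:103366792-103367041, minus strand: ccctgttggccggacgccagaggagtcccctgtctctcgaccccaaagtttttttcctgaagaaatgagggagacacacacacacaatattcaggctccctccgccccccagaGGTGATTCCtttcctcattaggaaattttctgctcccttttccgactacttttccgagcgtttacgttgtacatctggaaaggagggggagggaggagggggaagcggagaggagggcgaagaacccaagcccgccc
The match began 145 bases before the start in Sele, 14 in Selp and 137 in Itga5. In Icam1 there were matches at 153 and 84 bases, and the first of these read as a match on both strands. Of the 21 adhesion genes with an entry, 5 held a match: these 4 and Itgb1. None of the 8 entries of genes that fell held one, and 15.7% of all 32851 promoters did. TGANTCA, a form of the AP-1 site, was found in Sele, Selp and Itgax and in 6.75% of all promoters. AGGAAGT, a form of the ETS site, was found in Itga1, Itga11, Itgav and Itgb6 and in 7.69%. Of the longer forms, GGGANTTCC was found in none of the 21 and in 1.43% of all promoters. GAGGAAGT was found in Itga11, Itgav and Itgb6 and in 2.44%. The 5 motifs were chosen after the POD1 calls had been seen, every match of a longer form is also one of its shorter form, and a match describes letters only.

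**Figure D1:**
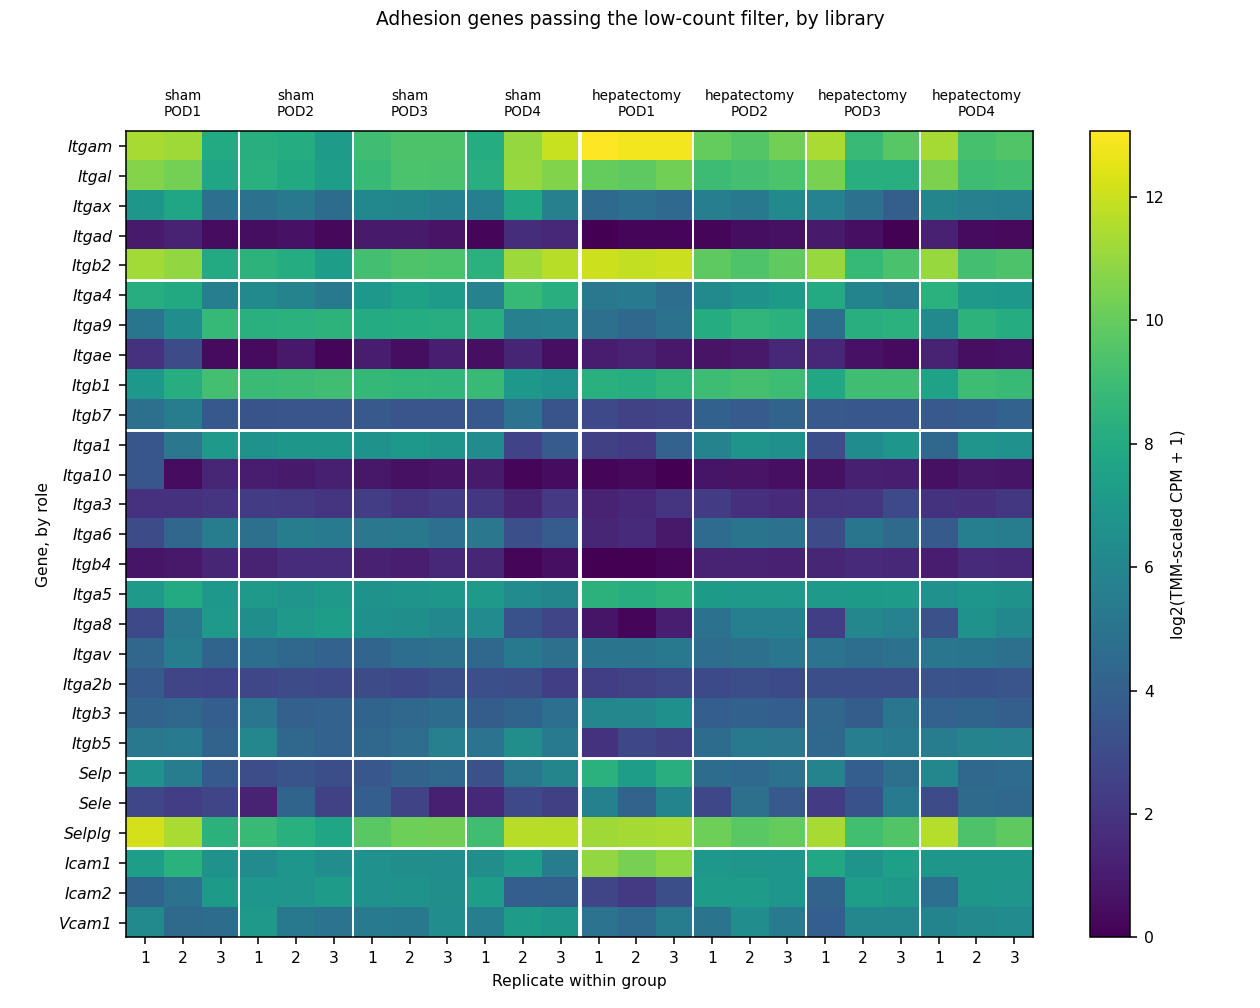
Level of each of the 27 tested adhesion genes (rows, grouped by role) in each of the 24 libraries (columns, 3 per group), as log2(TMM-scaled CPM + 1) on a colour scale. The 3 hepatectomy POD1 libraries are bright for Icam1, Itgam and Itgb2 and dark for Itga6, Itga8 and Itgb5, and the other libraries of low endothelial score share the dark Itga9, Itga1 and Icam2.

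Icam1 encodes ICAM-1, a ligand of beta2 integrins that appears on endothelium and on leukocytes, including neutrophils in mice. It stood at 1948, 1351 and 1825 CPM in the 3 hepatectomy POD1 libraries and at 155, 325 and 99.5 CPM in the 3 sham POD1 libraries. The groups did not overlap, and no other library of the series exceeded 325 CPM. The log2 fold change was 3.15 ± 0.45 (SE, n = 3 and 3; adjusted p = 8.03e-05, edgeR), or 3.57 above the median of all genes. Replicate by replicate, Icam1 was at 124, 118 and 117 CPM after hepatectomy on POD2, beside 79.4, 118 and 83.2 CPM after sham. On POD3 it was at 228, 108 and 163 CPM beside 97.0, 87.9 and 83.7 CPM, which did not overlap, at a log2 fold change of 0.89 ± 0.41 (adjusted p = 0.635, edgeR). On POD4 the values were 119.6, 118 and 120.2 CPM beside 86.5, 159.6 and 45.2 CPM, which overlapped. The exons of Icam1 overlap a gene on the other strand, and those of 11 others of the 32 (among them Itgam, Itga4, Itga1, Itga8, Itga10, Itgb4, Selp and Vcam1) overlap another gene. No source used here gives the strand setting of the counting, so reads of such pairs may be shared.

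Of the other ligands with an immunoglobulin fold, 1 fell and 1 was not called. Icam2, a beta2 integrin ligand held at a steady level on endothelium, was at 5.71, 3.63 and 7.89 CPM after hepatectomy on POD1 and at 17.4, 29.1 and 141 CPM after sham. All 3 hepatectomy POD1 libraries lay below every other library of the series. Icam2 fell by 3.44 on the log2 scale (SE 0.98, adjusted p = 0.0106, edgeR). Without sham POD1 replicate 3, the library at 141 CPM, the fold change was -2.02 and was no longer called (adjusted p = 0.111, edgeR). Vcam1, the endothelial and Kupffer cell ligand of alpha4 integrins, was at 30.1, 22.8 and 43.5 CPM after hepatectomy and 72.8, 22.1 and 23.6 CPM after sham, which overlapped.

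Selp encodes P-selectin, stored in the granules of platelets and endothelial cells and brought to their surface on activation. On POD1 it was at 321, 156 and 288 CPM after hepatectomy and at 96.0, 43.9 and 12.1 CPM after sham. The groups did not overlap, and every other library lay below the lowest hepatectomy POD1 library. On the log2 scale the fold change was 2.33 ± 0.71 (adjusted p = 0.0149, edgeR), and without sham POD1 replicate 3 it was 1.86 and not called (adjusted p = 0.0645, edgeR). Sele encodes E-selectin, which endothelium makes on stimulation by cytokines. It was at 52.2, 17.2 and 59.0 CPM after hepatectomy on POD1 and at 5.84, 4.15 and 5.72 CPM after sham. These did not overlap, although single libraries of other days reached 39.0 CPM. The log2 fold change of Sele was 3.03 ± 1.00 (adjusted p = 0.0223, edgeR). That call was lost without hepatectomy POD1 replicate 1 (adjusted p = 0.0569), without replicate 3 of that group (adjusted p = 0.0602), without sham POD1 replicate 2 (adjusted p = 0.0653) and without sham POD1 replicate 3 (adjusted p = 0.0704), all by edgeR. The fold changes in those 4 fits were 2.85, 2.72, 2.88 and 3.10. With library size alone Sele was at 1.98 and was also not called (adjusted p = 0.0936, edgeR).

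Sele and Selp are best known from endothelium and platelets, so the levels of those cells' markers are given beside them. The summed level of the 15 endothelial markers was 1546 to 1652 CPM in the hepatectomy POD1 libraries and 1706 to 34449 CPM in the sham POD1 libraries. Of the 15, 13 fell on POD1, where 28% of all genes fell. Pecam1, an adhesion molecule of endothelium and leukocytes, was at 56.5, 46.3 and 79.7 CPM after hepatectomy and 76.6, 206 and 880.0 CPM after sham on POD1. Cdh5, the cadherin of endothelial junctions, was at 78.8, 48.2 and 111 CPM beside 87.6, 287 and 1267 CPM. The 9 platelet markers summed to 26.2 to 40.1 CPM after hepatectomy and 46.3 to 126 CPM after sham, and 3 of the 8 tested fell (Gp9, Gp1ba and Clec1b). Clec1b split by the endothelial score, at 3.24 to 32.7 CPM in the 9 libraries of low score and 62.1 to 161 CPM in the 15 others. The platelet sum is therefore not a measure of platelets apart from that score. No marker of either list was at 0 in all libraries of a POD1 group, and the part of these cells in the levels of Selp and Sele was not tested.

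Selplg encodes PSGL-1, the leukocyte ligand of the selectins. It was at 2383, 2535 and 2726 CPM after hepatectomy on POD1 and at 4752, 2722 and 334 CPM after sham, so the hepatectomy values lay inside the sham range. The log2 fold change was -0.03 ± 0.79 (adjusted p = 0.98, edgeR), with a sign that turned to 0.04 under DESeq2 size factors. Across the series its level was 2383 to 4752 CPM in the 9 of low score and 205 to 1189 CPM in the 15 others, without overlap.

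**Figure D2:**
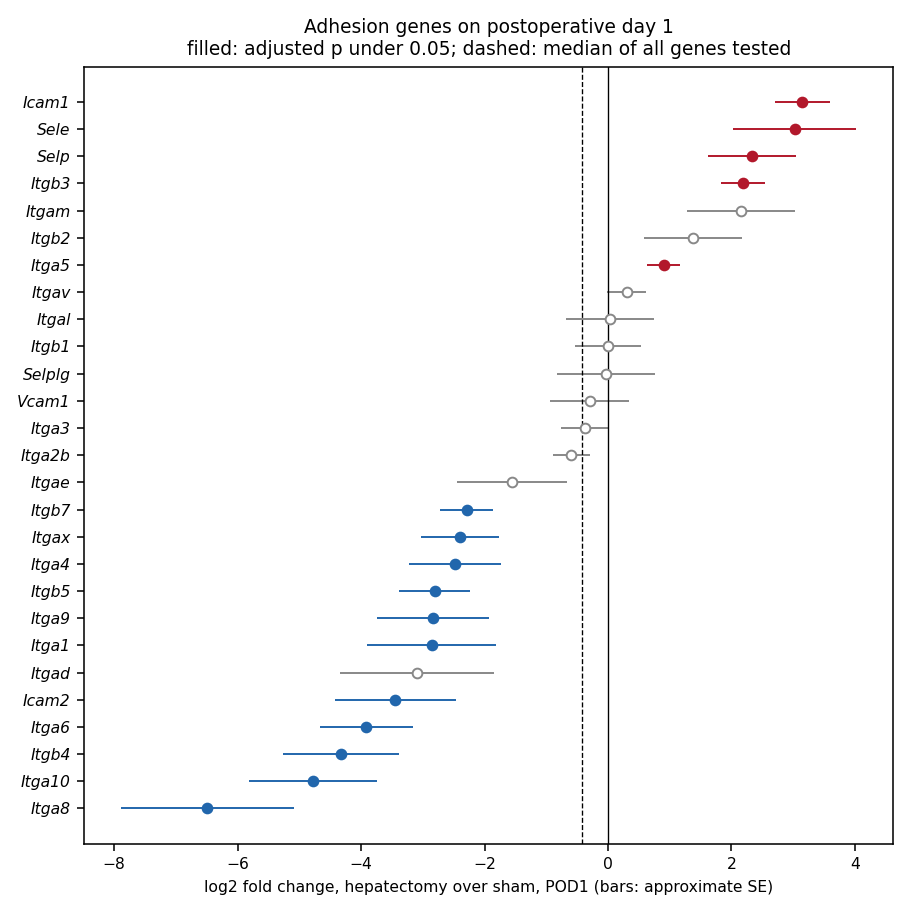
Log2 fold change of each tested adhesion gene on POD1, hepatectomy over sham, with approximate SE as bars (n = 3 and 3 libraries). Filled points passed an adjusted p of 0.05, the dashed line is the median of all genes tested at -0.42, and Icam1 at 3.15 and Itga8 at -6.49 are the extremes. Itga5 turned to -0.06 with library size alone.

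The beta2 integrins are the chains most typical of neutrophils, and none of their 5 genes was called as higher on POD1 in the fit of all 24 libraries. Itgam, whose product pairs with CD18 to form Mac-1, was at 8602, 7231 and 7356 CPM after hepatectomy and at 2598, 2372 and 251 CPM after sham. The groups did not overlap, and no other library exceeded 3989.8 CPM. The log2 fold change of 2.15 ± 0.88 missed the threshold (adjusted p = 0.0564, edgeR). DESeq2 called it (2.23, adjusted p = 0.0176). In edgeR it was called in 4 of the 24 fits without 1 library, at adjusted p 0.0271 to 0.0482, and over all 24 the adjusted p reached 0.177, without sham POD1 replicate 3. Without the 4 POD3 and POD4 libraries of low endothelial score, an alternative chosen after seeing the data, it was called at 0.00644. With the endothelial score as a covariate it was not called and its sign turned, at -0.09 (adjusted p = 0.904, edgeR). Itgb2, which encodes CD18, was at 4272, 3685 and 4227 CPM beside 2429, 2014 and 251 CPM. It did not overlap either and had a log2 fold change of 1.38 ± 0.79 (adjusted p = 0.166, edgeR). For both genes sham POD1 replicate 3 was far below the other 2 sham libraries. Its neutrophil markers summed to 7161 CPM, where sham POD1 replicate 1 reached 121856 CPM and the hepatectomy POD1 libraries 226423 to 269123 CPM. Of the 12 markers, 2 (Ngp and Lcn2) were called as higher on POD1 and none as lower. Of all genes, 13% were called as higher and 28% as lower. The part of neutrophils in Itgam and Itgb2 was not tested.

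Itgal, which encodes the alpha chain of LFA-1, was at 1006, 916 and 1238 CPM after hepatectomy on POD1, inside the sham range of 213 to 1576 CPM. Itgax, which encodes CD11c and is highest in dendritic cells and some macrophages, was at 21, 26.1 and 20.7 CPM beside 119.9, 212 and 26.6 CPM. All 3 hepatectomy libraries lay below all 3 sham libraries. Itgax fell by 2.4 on the log2 scale (SE 0.64, adjusted p = 0.00747, edgeR) and was called in each of the 24 fits that left out 1 library. Beside it, all 4 tested dendritic cell markers fell, where 28% of all genes did. The 6 markers of the list summed to 2.37 to 2.77 CPM after hepatectomy and 10.7 to 175 CPM after sham. The 175 CPM was that of sham POD1 replicate 3, the sham POD1 library with the lowest Itgax, and 148 CPM of it was Zbtb46. Zbtb46 split by the endothelial score, at 1.04 to 21.1 CPM in the 9 libraries of low score and 67.2 to 148 CPM in the 15 others. Clec9a split as well, at 0.146 to 5.63 and 8.65 to 25.1 CPM, while Siglech and Ccr7 overlapped. The dendritic cell sum is therefore not a measure of dendritic cells apart from that score. Siglech was at 0 in the 3 hepatectomy libraries, and the part of dendritic cells in Itgax was not tested. Itgad, a further alpha partner of CD18, had 2 counts over the 3 hepatectomy libraries and 30 over the 3 sham libraries. Its counts per scaled library size were 8.25-fold higher after sham (95% interval 2.09 to 71.3, counting error only), and it was not called (adjusted p = 0.0532, edgeR).

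The makeup of the beta2 family differed between libraries apart from its level. Per kilobase of exon, Itgam made up 88.4 to 91.6% of the 4 alpha chains that pair with CD18 in the hepatectomy POD1 libraries and 49.1 to 76.4% in the other 21. Itgal made up 8.19 to 11.4% against 22.2 to 42.5%, and Itgax 0.234 to 0.343% against 1.02 to 9.04%. None of these ranges overlapped. The ratio of Itgam to Itgal in CPM, not divided by exon length, was 5.94 to 8.55 in the hepatectomy POD1 libraries. It was 0.95 to 2.57 in the other 6 libraries of low endothelial score and 0.900 to 2.63 in the 15 of high score. A ratio within a library does not depend on the scaling between libraries, and it shows unequal levels, not which of the genes changed. The ratio of Itgam to Itgb2 was 1.74 to 2.01 in the same 3 libraries, above 0.844 to 1.32 in the others. Selplg stood at 0.558 to 0.688 of Itgb2 in CPM there and at 1.00 to 1.96 in the other libraries. Not every ratio set these 3 libraries apart. Icam1 stood at 0.366 to 0.456 of Itgb2 there, inside the 0.123 to 0.530 of the 15 libraries of high score. It was at 0.0137 to 0.161 in the other 6 of low score. Itgb3 stood at 0.0154 to 0.0225 of Itgb2 there, inside the 0.0145 to 0.102 of the 15. It was at 0.00689 to 0.00958 in the other 6 of low score.

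**Figure D3:**
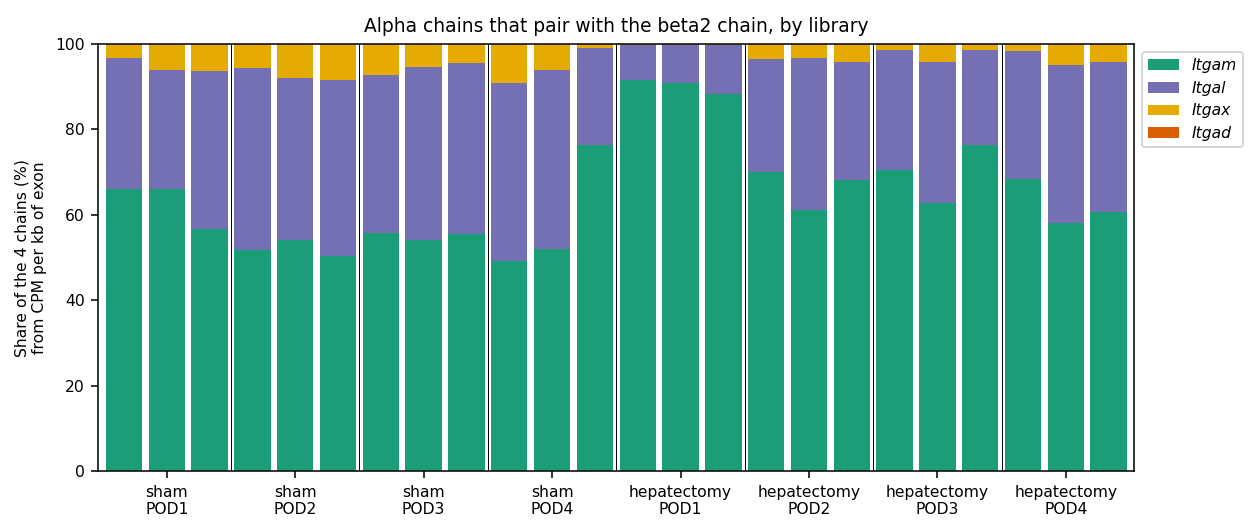
Share of each alpha chain of the beta2 integrins in their summed level per kilobase, in percent, for each library by group. Itgam holds 88.4 to 91.6% in the 3 hepatectomy POD1 libraries and at most 76.4% in any other library.

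The order of levels per kilobase also differed by group. In hepatectomy POD1 the mean levels per kilobase ran from Itgam (1539 ± 151 CPM per kilobase, SD, n = 3) and Itgb2 (1331 ± 107) to Selplg (596 ± 40.2) and Icam1 (391.7 ± 72.3). Itgal followed at 160 and Itgb1 at 79.4 CPM per kilobase, and no neighbours among these 6 overlapped in range. In sham POD2, whose median neutrophil marker sum was the lowest of the 8 groups, Itgb1 came first at 123 CPM per kilobase. It was followed by Itgb2 at 84.6, Selplg at 76.0, Icam2 at 65.0 and Itgam at 47.3 CPM per kilobase. Itgb1 lay above the range of each of these, while Itgb2, Selplg, Icam2 and Itgam each overlapped with the next in order.

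Among the chains of the alpha4, alpha9, alphaE, beta1 and beta7 integrins, 3 of 5 fell on POD1 and none rose. Of all genes, 28% fell and 13% rose. Itga4, the alpha chain of VLA-4 that binds VCAM-1 and fibronectin, was at 36.7, 41.2 and 25.6 CPM after hepatectomy and at 285, 246 and 46.8 CPM after sham. The groups did not overlap. On the log2 scale the fold change was -2.48 ± 0.74 (adjusted p = 0.0139, edgeR), and the call was lost without hepatectomy POD1 replicate 3 (adjusted p = 0.0542, edgeR). Itga4 stood at 0.00605 to 0.0112 of Itgb2 in CPM in the hepatectomy POD1 libraries and at 0.0729 or more in all others. Itgb7, a beta partner of alpha4 and alphaE in lymphocyte homing, was at 6.49, 4.89 and 5.70 CPM beside 27.1, 45.3 and 11.2 CPM. Those 3 libraries were the lowest of all 24, and Itgb7 fell by 2.29 on the log2 scale (SE 0.42, adjusted p = 0.000735, edgeR). Markers of B cells, which carry alpha4 and beta7 chains, summed to 0.838 to 1.75 CPM in the hepatectomy POD1 libraries and 20.1 to 37.0 CPM in the sham POD1 libraries, and 5 of 6 fell. Ms4a1 was at 0 in the hepatectomy libraries, and the part of B cells in Itga4 and Itgb7 was not tested.

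Itga9, whose product with beta1 binds tenascin-C and osteopontin, was at 26.9, 20.5 and 29.8 CPM after hepatectomy on POD1 and at 32.5, 82.9 and 435 CPM after sham. The groups did not overlap. Sham replicate 1 lay near the hepatectomy values, replicate 2 lay above them and replicate 3 stood far above. Itga9 fell by 2.83 on the log2 scale (SE 0.91, adjusted p = 0.0196, edgeR), but the call was lost without any 1 of 4 libraries. Without each hepatectomy POD1 library in turn the adjusted p was 0.0614, 0.0688 and 0.0516, and without sham POD1 replicate 3 the fold change was -1.17 (adjusted p = 0.299, edgeR). Across the series Itga9 was at 20.5 to 82.9 CPM in the 9 libraries of low endothelial score and 258 to 435 CPM in the 15 others. Itgb1, the beta chain shared by most matrix receptors, was at 313, 281 and 379 CPM beside 125, 279 and 565 CPM, with a log2 fold change of 0.00 ± 0.54 (adjusted p = 0.996, edgeR). Itgae, which encodes the alphaE chain of tissue lymphocytes and dendritic cells, was at 0.876 to 1.40 CPM beside 0.304 to 7.02 CPM and was not called.

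Of the chains of collagen and laminin receptors, 5 of 8 were tested, 4 fell on POD1 and none rose. Among all genes 28% fell and 13% rose. Itga1, the alpha chain of a collagen receptor of sinusoidal endothelium and stellate cells, was at 4.54, 3.77 and 16.1 CPM after hepatectomy and 10.1, 35.5 and 130.0 CPM after sham, which overlapped. It fell by 2.85 on the log2 scale (SE 1.04, adjusted p = 0.0358, edgeR). The call was lost without any 1 of 3 libraries: hepatectomy POD1 replicate 1 (adjusted p = 0.120), hepatectomy POD1 replicate 2 (adjusted p = 0.119) and sham POD1 replicate 3 (adjusted p = 0.289), all by edgeR. Without those hepatectomy libraries the fold change stayed at -2.57 and -2.52, and without the sham library it was -1.49. Itga6, an alpha chain of laminin receptors, was at 1.69, 2.09 and 0.876 CPM beside 7.19, 18.7 and 44.6 CPM. Its 3 hepatectomy POD1 libraries were the lowest of all 24, and it fell by 3.91 on the log2 scale (SE 0.75, adjusted p = 0.00096, edgeR).

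Itgb4, the laminin receptor chain that pairs with alpha6, had 1 count over the 3 hepatectomy POD1 libraries and 48 over the 3 sham libraries. Its level per scaled library size was 26.4-fold higher after sham (95% interval 4.52 to 1064, counting error only), with an adjusted p of 0.0023 in edgeR. Itga10, a collagen receptor chain best known from cartilage, had 3 counts beside 127, a level 23.3-fold higher after sham (95% interval 7.79 to 114), with an adjusted p of 0.00229 in edgeR. Of those 127 counts, 90 were in sham POD1 replicate 1 alone, at 10.1 CPM where no other library of the series exceeded 1.67 CPM. Without that library the log2 fold change went from -4.77 to -2.87 and was still called (adjusted p = 0.0108, edgeR). Itga3, a laminin receptor chain, was at 1.43 to 3.07 CPM beside 2.58 to 2.89 CPM and was not called. The untested Itga2, Itga7 and Itga11 reached 3, 16 and 3 counts at most.

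Among the chains of fibronectin, vitronectin and fibrinogen receptors, 6 of 8 were tested, 2 rose and 2 fell on POD1. Of all genes, 13% rose and 28% fell. Itgb3, the beta chain of the platelet fibrinogen receptor and of the vitronectin receptor, was at 65.7, 65.9 and 95.1 CPM after hepatectomy and at 16.7, 19.3 and 13.8 CPM after sham. All 3 hepatectomy POD1 libraries lay above every other library, the highest of which was at 34.5 CPM. The log2 fold change was 2.19 ± 0.35 (adjusted p = 0.000213, edgeR). Neither of its alpha partners was called with TMM scaling. Itga2b, the platelet chain, was at 4.28, 4.75 and 5.99 CPM beside 12, 5.54 and 5.22 CPM. Itgav, the alpha chain of the vitronectin receptor, was at 32.2, 31.4 and 38.4 CPM beside 18.8, 46.1 and 17.8 CPM. Both overlapped between groups (adjusted p = 0.111 for Itga2b and 0.447 for Itgav, edgeR). With library size alone Itga2b was called as lower, at -1.47 (adjusted p = 0.00424, edgeR), as were Itga3, Itgad and Itgae.

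Itga5, the alpha chain of the classical fibronectin receptor, was at 335, 279.6 and 345 CPM beside 133, 258 and 123 CPM. The groups did not overlap, and every library outside hepatectomy POD1 was at or below 258 CPM. On the log2 scale the fold change was 0.90 ± 0.27 (adjusted p = 0.0137, edgeR), which is 1.32 above the median of all genes, but with library size alone it was -0.06 (adjusted p = 0.903, edgeR). It was also not called without sham POD1 replicate 3 (0.71, adjusted p = 0.0786, edgeR). Itga8, a chain of hepatic stellate cells and other mesenchymal cells, had 5, 1 and 8 counts after hepatectomy and 58, 398 and 2628 after sham, or 0.649, 0.140 and 1.17 CPM beside 6.51, 36.7 and 133 CPM. Its 3 hepatectomy POD1 libraries were the lowest of all 24, and it fell by 6.49 on the log2 scale (SE 1.40, adjusted p = 0.00224, edgeR). Across the series Itga8 was at 0.140 to 36.7 CPM (median 5.59) in the 9 libraries of low endothelial score. In the 15 others it was at 28.9 to 155 CPM (median 78.1), so the ranges overlapped. Itgb5, a beta partner of alphav, was at 2.73, 6.14 and 4.53 CPM beside 37.3, 39.9 and 16.6 CPM, below every other library, and fell by 2.81 (SE 0.57, adjusted p = 0.00158, edgeR). Markers of stellate cells and fibroblasts summed to 404 to 552 CPM after hepatectomy and 607 to 817 CPM after sham. Of these markers 6 of 8 fell, where 28% of all genes did, and their part in Itga8 was not tested. The untested Itgb6 and Itgb8 reached 1 and 9 counts at most.

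Across all 27 genes on POD1, the 3 libraries of each operation did not overlap for 7 genes that were higher after hepatectomy, where 21.3% of all genes behaved so. The 7 were the 5 that rose, Itgam and Itgb2. For 11 genes the hepatectomy libraries were all lower, where 28.1% of all genes behaved so. Set against all 21 other libraries, the hepatectomy POD1 libraries were the highest for 6 genes (Icam1, Itga5, Itgam, Itgb2, Itgb3 and Selp; 15% of all genes) and the lowest for 5 (Icam2, Itga6, Itga8, Itgb5 and Itgb7; 17.9%). The 9 genes called in each of the 24 fits without 1 library were Icam1, Itgb3, Itgax, Itgb7, Itga6, Itga8, Itga10, Itgb4 and Itgb5. Without sham POD1 replicate 3, the sham POD1 library of high endothelial score, 10 genes were called: Icam1 and Itgb3 as higher, and Itga4 and the 7 others of those 9 as lower.

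**Figure D4:**
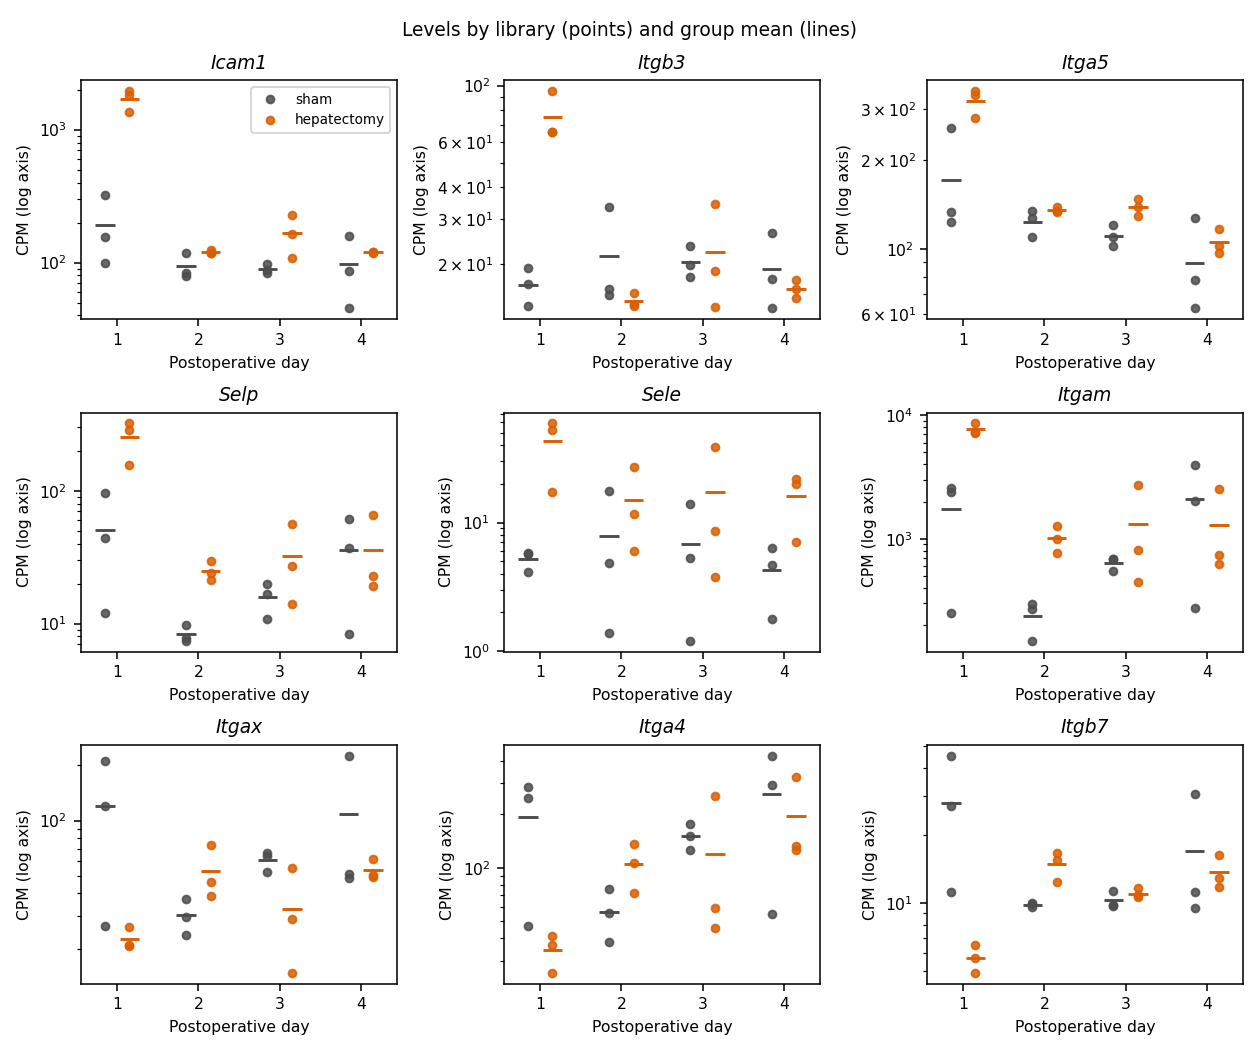
Level of 9 adhesion genes by postoperative day, as TMM-scaled CPM on a log axis, 1 point per library and a bar for each group's mean, sham in grey and hepatectomy in orange. On POD1 the orange points of Icam1, Itgb3, Itga5, Selp, Sele and Itgam lie above the grey, and those of Itgax, Itga4 and Itgb7 below. With library size alone the log2 fold change of Itga5 on POD1 was -0.06.

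Icam2, Itga1, Itga6 and Itga9, which fell on POD1, also split by the endothelial score over all 24 libraries, those of POD1 included. The 9 libraries of low score lay below the 15 others, without overlap, for these genes and for Itgb1, which was not called on POD1. That was 18.5% of the 27 genes, beside 24.5% of all genes, so it was not more frequent among them. Libraries of POD1 make up part of the 9. The 9 lay above the 15 others for Itgal, Itgam, Itgb2, Selp and Selplg, or 18.5% of the 27 genes, where 13.3% of all genes did so. With the score as a covariate, the POD1 log2 fold changes of Itga9, Itga1 and Icam2 turned to 0.87, 1.01 and 0.05, and those of Itgam and Itgb2 to -0.09 and -0.67. Set against only the other 6 libraries of low score, the hepatectomy POD1 libraries were higher without overlap for 8 of the 27 genes (18.7% of all genes) and lower for 9 (24.6%). All 3 hepatectomy POD1 libraries had a lower score than any other library, so the operation and the score cannot be told apart on that day. The score leaves out the TMM factors. With them the same 15 markers summed to 1546 to 1652 CPM in those 3 libraries. That was above hepatectomy POD3 replicate 1 (1312 CPM) and sham POD4 replicate 2 (1342 CPM).

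**Figure D5:**
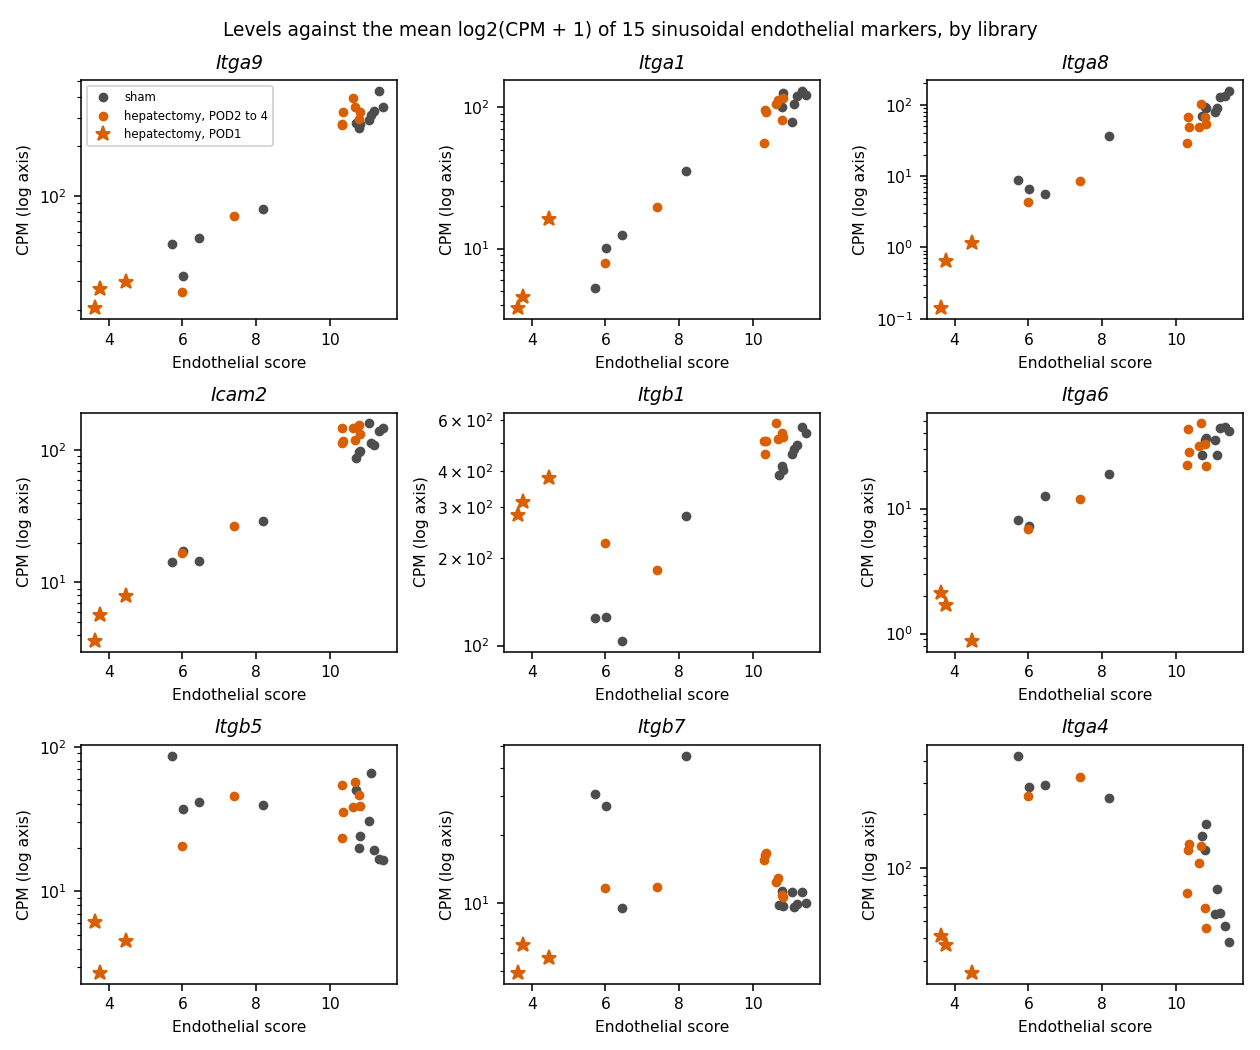
Level of adhesion genes in each library, as TMM-scaled CPM on a log axis, against its endothelial score. The score is the mean log2(CPM + 1) of 15 sinusoidal markers, without TMM factors. Sham is in grey, hepatectomy in orange and hepatectomy POD1 as stars. The 9 libraries at or below a score of 8.19 are separated from the 15 at or above 10.31, and Itga9 and Icam2 split by the same gap.

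On POD2 none of the 27 genes was called in the fit of all 24 libraries by edgeR or by DESeq2, where 0.0977% of all genes were called by edgeR. A fit of the 6 POD2 libraries alone, in which 26 of the genes were tested, called 7 (6 higher, 1 lower), among them Itgam (adjusted p = 0.00384), Itgb2 (0.00546) and Selplg (0.00627) by edgeR. With the endothelial score as a covariate edgeR called 6, all higher, these 3 among them. The shares of all genes called in these fits are not given here, so the counts cannot be set against them. At an unadjusted p under 0.05, 3 genes passed (Itgam, Itgb2 and Selp), beside 8.87% of all genes. Itgam was at 997, 766 and 1258 CPM after hepatectomy and at 295, 268 and 149 CPM after sham, without overlap. Its log2 fold change of 2.08 ± 0.88 was not called (adjusted p = 0.492, edgeR). Itgb2 was at 902, 703 and 953 CPM beside 344, 273 and 157 CPM, at 1.72 ± 0.80 (adjusted p = 0.544, edgeR). Selplg was at 1173, 841 and 1026 CPM beside 452, 318 and 205 CPM, at 1.64 ± 0.81 (adjusted p = 0.572, edgeR). In all, 7 genes were higher without overlap (these 3, Itgal, Itgax, Itgb7 and Selp) beside 22.9% of all genes, and 2 were lower (Itga8 and Itga10) beside 21.7%. Summed neutrophil markers moved the same way, at 19406 to 30602 CPM after hepatectomy and 3642 to 8737 CPM after sham, and their part in these values was not tested. All 6 POD2 libraries were of high endothelial score.

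On POD3, 0.0209% of all genes and none of the 27 were called by edgeR in the fit of all 24 libraries, and DESeq2 also called none of the 27. With the endothelial score as a covariate edgeR called 5 (2 higher, 3 lower), and the share of all genes in that fit is not given here. At an unadjusted p under 0.05 only Icam1 passed, beside 7.58% of all genes. Icam1 and Itga5 were higher without overlap (8.03% of all genes) and Itga8 was lower (8.96%). Itgam was at 2726, 445 and 807 CPM after hepatectomy and 542, 679.9 and 678 CPM after sham, so replicate 1, of low endothelial score, set the hepatectomy mean. Its log2 fold change was 1.07 ± 0.85 (adjusted p = 0.999, edgeR) and turned to -0.02 without that library. Itgb2 (0.72 ± 0.78) and Selplg (0.28 ± 0.79) turned to -0.29 and -0.72 without it, and all 3 were at an adjusted p of 0.999 in edgeR.

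On POD4 none of all genes and none of the 27 were called by edgeR, none of the 27 passed at an unadjusted p under 0.05 (4.81% of all genes), and DESeq2 called none of the 27. Itga2b and Sele were higher without overlap (2.69% of all genes) and none was lower (2.37%). Itgam ranged from 620.1 to 2544 CPM after hepatectomy and from 275 to 3989.8 CPM after sham. Its log2 fold change was -0.69 ± 0.84, that of Itgb2 was -0.81 ± 0.78, that of Selplg was -0.59 ± 0.79 and that of Icam1 was 0.30 ± 0.41, each at an adjusted p of 0.914 in edgeR. Without the 3 POD4 libraries of low endothelial score and replicate 1 of hepatectomy POD3, which leaves 1 sham POD4 library, those of Itgam, Itgb2 and Selplg were 1.30, 0.95 and 0.57.

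The difference between operations changed with the day for 8 of the 27 genes by edgeR's test of the interaction, where 8.68% of all genes passed. These were Itgb3, Icam1, Itgb7, Itga6, Itgb4, Itga10, Itgb5 and Itga8, and in each the POD1 fold change was larger in size than those of the 3 later days. Icam1 went from 3.15 on POD1 to 0.36, 0.89 and 0.30 on POD2, POD3 and POD4, and Itgb3 from 2.19 to -0.58, 0.13 and -0.26. Without hepatectomy POD1 replicate 1 the interaction was called for 2 genes, and without sham POD4 replicate 1 for 13. The count moved by over 1.5 times in 16 of the 24 such fits, and it was 16 with the endothelial score as a covariate. The shares of all genes in these other fits are not given here.

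After hepatectomy, 12 of the 27 genes differed between days (44.8% of all genes): Icam1, Itgb3, Itga5, Selp, Itgam, Itga6, Itgb4, Itgb5, Itga8, Icam2, Itga9 and Itgb7. Icam1 had a mean of 1708 ± 315 CPM (SD, n = 3) on POD1 and 119.8 ± 3.43 CPM on POD2, and Itgb3 of 75.5 ± 16.9 and 14.4 ± 0.913 CPM. Without hepatectomy POD1 replicate 1, 7 genes were called. After sham, no gene of the 27 and none of all genes differed between days by edgeR, while 11 of the 27 and 19.6% of all genes passed at an unadjusted p under 0.05, and DESeq2 called 9 of the 27. Without sham POD4 replicate 1, edgeR called 12 of the 27 between days of sham, and without sham POD1 replicate 3 it called 11. The shares of all genes in these omissions and under DESeq2 are not given here.

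The machinery that switches integrins on and ties them to actin was followed in a list of 34 genes, of which 33 were tested. On POD1, 7 rose and 5 fell, where 13% of all genes rose and 28% fell, and the median log2 fold change was 0.60, beside -0.42 for all genes. Cd47, an integrin-associated membrane protein that limits phagocytosis, was at 1248, 1166 and 1352 CPM after hepatectomy and 250.3, 162 and 194 CPM after sham. The groups did not overlap, no other library exceeded 288 CPM, and the log2 fold change was 2.63 ± 0.25 (adjusted p = 2.04e-06, edgeR). Lims1, an adaptor of the integrin-linked kinase complex, rose by 2.13 ± 0.40 (adjusted p = 0.000852, edgeR). Rap1a, a small GTPase that activates integrins, rose by 1.05 ± 0.17 (adjusted p = 0.000298, edgeR). Rap1b, Vcl and Cyth1 were among the others that rose. The genes that fell were Tln2, Ptk2, Parva, Parvb and Bcar1. Tln1, the main talin of leukocytes (0.90 ± 0.46, adjusted p = 0.123), and Fermt3, the kindlin of blood cells (1.14 ± 0.68, adjusted p = 0.177), were not called by edgeR.

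Of 17 other adhesion molecules of leukocytes and endothelium, 14 were tested, 6 fell on POD1 (Pecam1, Cd34, Podxl, Jam3, Cdh5 and Cd99l2) and none rose, where 28% of all genes fell and 13% rose. Their median was -1.83, beside -0.42 for all genes. Of 8 enzymes that build selectin ligands, 7 were tested, 1 rose and 2 fell, at a median of -0.45. B4galt1, a galactosyltransferase, rose by 0.61 ± 0.22 (adjusted p = 0.0321, edgeR). Gcnt1, which starts the core 2 branch carried by PSGL-1, fell by 2.23 (SE 0.75, adjusted p = 0.0246, edgeR), and Tpst1, a tyrosine sulfotransferase, fell by 1.46 (SE 0.36, adjusted p = 0.00487, edgeR).

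Of 21 matrix and plasma ligands of integrins, 19 were tested, 1 rose and 7 fell on POD1, where 13% of all genes rose and 28% fell. Their median was -1.26, beside -0.42 for all genes. The 1 that rose was Thbs1, which encodes thrombospondin-1, a ligand of CD47 and of several integrins. It was at 10905, 10864 and 16326 CPM after hepatectomy and 357, 450.2 and 16.5 CPM after sham, and no other library of the series exceeded 450.2 CPM. The log2 fold change was 5.53 ± 1.30 (adjusted p = 0.00394, edgeR). Fn1, which encodes fibronectin, fell by 3.71 (SE 0.79, adjusted p = 0.00207, edgeR), and Lama4, Lama5, Nid1, Postn, Mfge8 and Fbln5 also fell.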

How the data were processed

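Poly-A RNA of CD11b+Ly6G+ liver cells was sequenced in 24 libraries. The authors deposited raw counts per gene symbol, made with cutadapt, STAR 2.4.2a and HTSeq on GRCm38, per the submitters' processing notes. The annotation release and the strand setting are not given in the sources used here. All values are whole numbers, with library totals of 10390216 to 16949088, and every pair of replicates differed by more than counting noise.

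Tests used edgeR 4.0.16 (quasi-likelihood F test, two-sided, R 4.3.3) in 1 fit of 24 libraries over 8 groups, with TMM and filterByExpr (minimum count 10, minimum total 15), which kept 14325 genes. Benjamini-Hochberg adjustment covered all of them, with a threshold of 0.05. The approximate SE was derived from each fold change and its F value. Comparisons were hepatectomy against sham on each day, the interaction of operation and day, and the days within each operation. The fit was also run on simulated data with known changes. No result of that run is given here, and no conclusion about these libraries is drawn from it. CPM values are TMM-scaled, except in the endothelial score and the filter of 5 CPM, which use library totals alone. Per kilobase values use the exon length in GENCODE M21, and ratios between genes use CPM without it. Of the 32 genes, 12 have exons that overlap another gene. Counting intervals are exact, at 95%, and cover counting error only.

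Every gene of the 32 is accounted for. Tests are given for genes past the threshold and, on each day, for Itgam, Itgb2, Selplg and Icam1. The genes, lists and alternatives were chosen with earlier results of these data known. Alternatives were DESeq2 1.42.0, edgeR with the DESeq2 size factors or with library sizes only, no filter, a filter of 5 CPM in 3 libraries, a fit of 1 day or operation, a replicate block, the endothelial score as a covariate, and the omission of each library. The omission of the 4 POD3 and POD4 libraries of low endothelial score was extended to further comparisons after seeing the data.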

Additional observations from a re-analysis of the deposited data

Results flagged for a closer look

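The difference between hepatectomy and sham was not the same on all days for 8 genes, by edgeR's test of the interaction over the 4 days with Benjamini-Hochberg adjustment. The adjusted p was 0.00494 for Itgb3, 0.0126 for Icam1, 0.0164 for Itgb7, 0.0223 for Itga6, 0.0226 for Itgb4, 0.041 for Itga10, 0.0422 for Itgb5 and 0.0442 for Itga8. The log2 fold changes on POD1, POD2, POD3 and POD4 were -2.29, 0.60, 0.09 and -0.32 for Itgb7 and -2.81, -0.06, 0.17 and -0.02 for Itgb5. They were -3.91, -0.45, -0.68 and 0.88 for Itga6 and -6.49, -1.56, -1.02 and 0.94 for Itga8. Itgb4 and Itga10 had 1 and 3 counts in the hepatectomy POD1 libraries, so their POD1 sizes rest on few reads. Without 1 library in turn, between 2 and 13 genes passed this test, with a count over 1.5 times away from 8 in 16 of 24 fits. With 3 libraries a group, no single library was tested as an outlier.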

How the results depend on the processing

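The 9 genes called on POD1 without each library in turn were also called under every other alternative in which they were tested. Counts over all genes under the alternatives and omissions are not given here, except with library size alone on POD1. Calls on POD1 ranged from 10 to 18 without 1 library (2 to 6 higher, 8 to 12 lower). They stayed at 0 on POD2, POD3 and POD4, and ranged from 2 to 13 for the interaction, 7 to 16 for days after hepatectomy and 0 to 12 for days after sham. Over these omissions Selplg ranged from -0.55 to 0.74 on POD1 and -0.72 to 0.64 on POD3, Itgam from -0.017 to 1.47 on POD3 and -1.62 to 0.18 on POD4, Itgb2 from -0.29 to 1.09 on POD3, and Icam1 from -0.039 to 0.86 on POD4. Library size alone gave 3 higher calls on POD1, 19 for days after hepatectomy, and -0.059 for Itga5 on POD1. A fit of 1 day gave 10 calls on POD1 (3 higher, 7 lower), 7 on POD2 (6 higher, 1 lower) and 0.0065 for Selplg on POD1. The same gene was at 0.038 with DESeq2 and with its size factors, and DESeq2 called 9 genes for days after sham.

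With the endothelial score as a covariate, 6 genes were called on POD2 (6 higher), 5 on POD3 (2 higher, 3 lower), 16 for the interaction and 1 for days after sham. On POD1 it gave 0.87 for Itga9, 1.01 for Itga1, 0.050 for Icam2, -0.090 for Itgam and -0.67 for Itgb2. For Itgam, Itgb2 and Selplg it gave -0.20, -0.45 and -0.89 on POD3 and 0.58, 0.37 and 0.43 on POD4. Without the 4 late libraries of low score the same 3 genes were at -0.016, -0.29 and -0.72 on POD3 and 1.30, 0.95 and 0.57 on POD4, and 6 genes were called for days after sham. The cause of these changes was not tested.

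Same-numbered libraries deviated together in 3 of 12 pairs (r over 0.1, range -0.90 to 0.24), so the numbers were not taken to pair the samples. With the replicate block the interaction was called for 4 genes and Selplg on POD1 was at 0.21. Depth limits Itga10, Itgb4 and Itgad, with 1 to 3 counts in the hepatectomy POD1 libraries, and the 5 untested genes.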
